A study of Mus musculus with 3 samples.

Results

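The genes described here are 42 genes of the cell cycle and of DNA replication, chosen by a list of symbols and found in all 3 libraries among 22028 protein-coding genes of the annotation. They were divided into 14 genes of G1 and its exit, 12 genes of DNA replication and 16 genes of mitosis. The libraries hold RNA of the chromatin fraction of primary macrophages grown from bone marrow of C57BL/6J mice. All cells had received 100 ng/ml of lipid A, the part of bacterial lipopolysaccharide that the receptor TLR4 recognises, for 120 min. There was 1 group of 3 libraries, labelled as biological replicates 1, 2 and 3 and prepared from 1 µg, 250 ng and 500 ng of RNA. All carried 1 donor label, and no label says that the cultures were separate, so p-values measure the spread between these libraries, which may be technical. No untreated or cytoplasmic library was analysed here, so no value below is a response to lipid A. Macrophages grown from marrow are a mixed culture, and in such bulk RNA fewer cycling cells and less RNA per cell cannot be told apart.

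The cell cycle is driven by cyclin-dependent kinases, which are switched on by cyclins and held back by inhibitor proteins. In G1, D-type cyclins with CDK4 or CDK6 phosphorylate the retinoblastoma family, which releases E2F factors to activate genes of DNA replication, and genes of mitosis follow later under the DREAM, MYB-MuvB and FOXM1 complexes. Bone marrow-derived macrophages divide in response to the growth factor CSF1, and activation through TLR4 is known to halt them in G1. RNA on chromatin is enriched in transcripts that are still being made or have not yet been released, so its level need not follow that of the mature mRNA in the cytoplasm.

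Promoter windows of 34 of the 42 genes were present in the RefSeq table of promoters (build GRCm38.p6, 250 bases before to 50 bases after each start). The windows of Cdc6 and Cdk6 printed here lie wholly within the annotated gene, after its outermost start (98907801 and 3341485). They are shown because G1, replication and mitotic genes are known to be read by different factors, and the windows of these 5 genes hold a high and a low member of the mitotic and replication groups and the highest G1 gene. Capitals mark, on either strand, the CHR element TTTGAA of mitotic genes, the E2F element in the forms TTTCCCGC, TTTGGCGC, TTTCGCGC and TTTGCCGC, and the CCAAT box. Matches of different elements, or of both strands, may overlap.
Mki67 (chr7:135716330-135716629, minus strand): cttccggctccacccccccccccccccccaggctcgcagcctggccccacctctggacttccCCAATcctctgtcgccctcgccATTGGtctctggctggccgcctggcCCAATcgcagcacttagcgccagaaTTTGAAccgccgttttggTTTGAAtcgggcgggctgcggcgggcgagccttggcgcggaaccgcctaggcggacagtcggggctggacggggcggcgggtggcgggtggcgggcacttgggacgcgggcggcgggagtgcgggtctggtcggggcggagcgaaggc
Plk1 (chr7:122159185-122159484, plus strand): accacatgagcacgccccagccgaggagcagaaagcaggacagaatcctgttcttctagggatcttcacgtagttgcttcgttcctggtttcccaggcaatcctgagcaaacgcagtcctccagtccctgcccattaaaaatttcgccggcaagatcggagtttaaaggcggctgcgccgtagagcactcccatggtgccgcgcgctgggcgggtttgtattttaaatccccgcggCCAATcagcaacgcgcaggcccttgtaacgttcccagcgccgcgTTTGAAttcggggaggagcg
Mcm6 (chr1:128359656-128359955, minus strand): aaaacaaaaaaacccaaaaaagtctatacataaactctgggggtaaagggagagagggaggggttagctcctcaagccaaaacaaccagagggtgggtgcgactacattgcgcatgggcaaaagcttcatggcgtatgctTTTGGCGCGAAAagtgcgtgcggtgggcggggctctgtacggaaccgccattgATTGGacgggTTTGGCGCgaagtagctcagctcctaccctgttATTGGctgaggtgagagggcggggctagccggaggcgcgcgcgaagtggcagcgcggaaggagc
Cdc6 (chr11:98907901-98908200, plus strand): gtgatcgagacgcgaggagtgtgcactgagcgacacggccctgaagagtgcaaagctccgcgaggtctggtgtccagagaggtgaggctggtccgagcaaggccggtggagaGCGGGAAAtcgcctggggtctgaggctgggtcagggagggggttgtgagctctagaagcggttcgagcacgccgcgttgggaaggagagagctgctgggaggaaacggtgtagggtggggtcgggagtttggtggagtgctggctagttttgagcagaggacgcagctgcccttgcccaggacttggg
Cdk6 (chr5:3343643-3343942, plus strand): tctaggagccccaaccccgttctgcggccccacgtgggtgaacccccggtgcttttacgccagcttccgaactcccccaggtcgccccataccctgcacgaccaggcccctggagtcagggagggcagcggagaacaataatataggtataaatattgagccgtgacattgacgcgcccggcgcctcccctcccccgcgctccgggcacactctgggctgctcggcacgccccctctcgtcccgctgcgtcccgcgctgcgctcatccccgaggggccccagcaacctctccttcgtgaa

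The mitotic antigen gene Mki67 held 2 CHR elements and 3 CCAAT boxes, the mitotic kinase gene Plk1 held 1 of each, the helicase gene Mcm6 held 3 E2F elements and 2 CCAAT boxes, and Cdc6, which loads the helicase, held 1 E2F element. The window of Cdk6 held none of them. Across windows, the CHR element was present in 9 of 13 mitotic genes (69.2%), 1 of 11 replication genes (9.09%) and 1 of 10 G1 genes, against 20.2% of all 27025 genes with a window. The E2F element was present in 6 of 11 replication genes (54.5%), 1 of 13 mitotic genes (7.69%) and 1 of 10 G1 genes, against 2.61% of all genes. A CCAAT box was present in 12 of 13 mitotic genes (92.3%), 8 of 11 replication genes (72.7%) and 4 of 10 G1 genes (40%), against 41.1% of all genes. These counts describe letters in a window, and the motifs and the printed genes were chosen with the expression values known. The window of E2f1, which held no E2F element, also lies within its annotated gene. Mki67 and Plk1 both carried CHR and CCAAT elements although their levels, given below, lay far apart.

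G1 genes stood above replication genes, and replication genes above mitotic genes, in each of the 3 libraries. Levels are given as TPM (transcript abundance per length and library), which divides counts by effective length to put genes on a common scale. Such levels still depend on the isoforms counted and on the quantifier, as given below. The median over the 14 G1 genes was 3.19, 4.38 and 4.98 TPM in replicates 1, 2 and 3, with a mean of 4.18 ± 0.911 TPM (SD, n = 3). For the 12 replication genes the medians were 0.575, 1.49 and 1.53 TPM, with a mean of 1.20 ± 0.540 TPM. The 16 mitotic genes had medians of 0.40, 0.74 and 0.48 TPM, with a mean of 0.540 ± 0.178 TPM. On the scale of log2(TPM + 0.1), the G1 median exceeded the replication median by 2.27, 1.47 and 1.66, a mean difference of 1.80 ± 0.42 or 3.49-fold. It exceeded the mitotic median by 2.71, 2.40 and 3.11, a mean difference of 2.74 ± 0.36 or 6.68-fold. The replication median exceeded the mitotic median by 0.44, 0.92 and 1.45, a mean difference of 0.94 ± 0.51 or 1.91-fold. That last order was lost with the other quantifier deposited for the same reads, in which the mean difference was -0.01. These are descriptions without a test, since members were chosen with results known, and 3 libraries could not go below p = 0.25 in an exact two-sided sign-flip test.

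Of the 42 genes, 16 reached 1 TPM in every library, a share of 38.1%, against 37.4% of all protein-coding genes. The share of the whole set was therefore near the background. It was made up of 10 of 14 G1 genes (71.4%), 3 of 12 replication genes (25%) and 3 of 16 mitotic genes (18.8%). None of the 42 was at 0 in every library, whereas 7022 of all protein-coding genes were. The median over all protein-coding genes was 0.253 ± 0.031 TPM, below the median of each class. Over the 11013 of them with a mean count of 10 or more, a filter that was not applied to the classes, it was 5.11 ± 1.12 TPM.

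**Figure D1:**
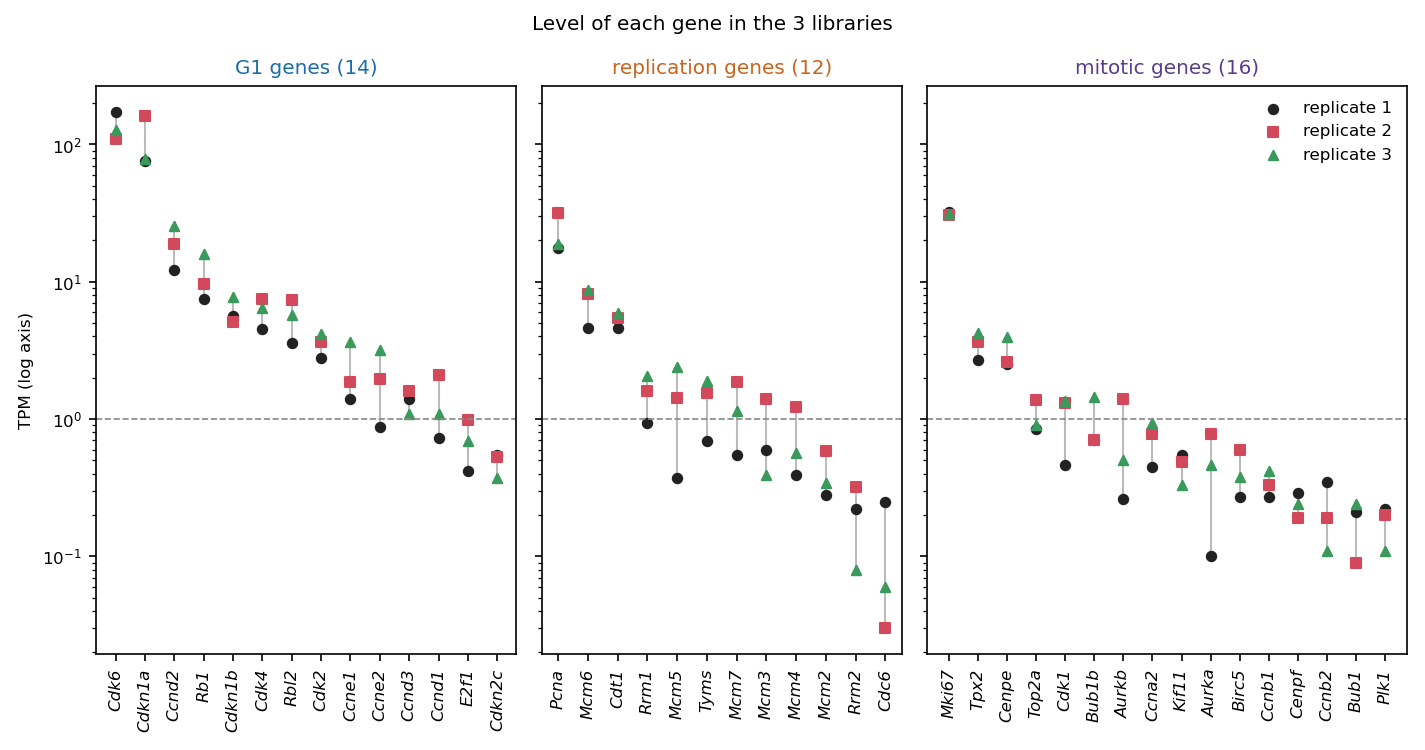
Level of each gene in TPM (log axis) in replicates 1 (circles), 2 (squares) and 3 (triangles), with a line over the range and a dashed line at 1 TPM. Cdk6, Cdkn1a, Mki67, Ccnd2 and Pcna had the highest means, while 11 of 16 mitotic genes had a mean under 1 TPM.

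**Figure D2:**
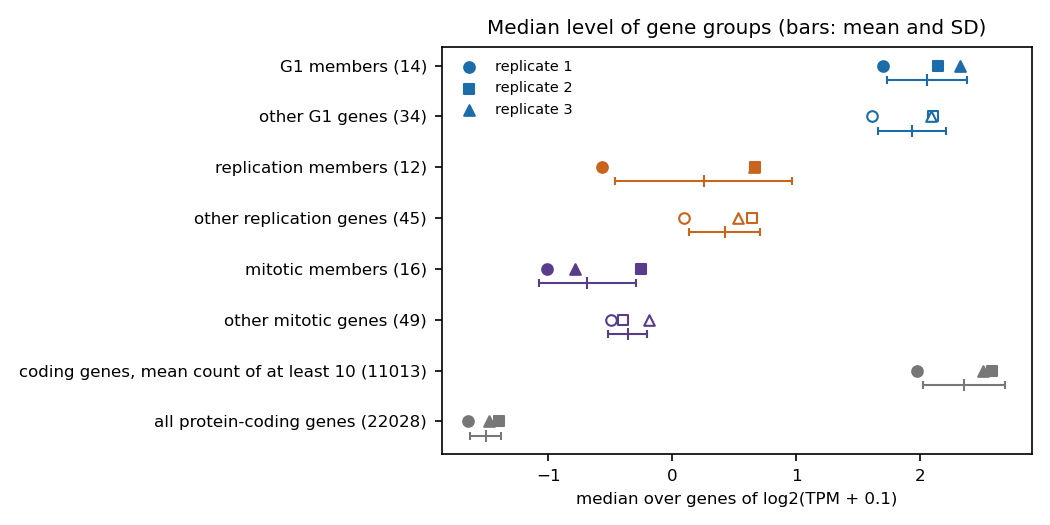
Median over genes of log2(TPM + 0.1) for the 3 classes, the wider list set beside each class, and protein-coding genes. There is 1 symbol per library and a bar for the mean and SD over 3 libraries. The G1 genes and their wider list lie near the coding genes with a mean count of 10 or more, and replication and mitotic genes lie lower.

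Among G1 genes, the kinase gene Cdk6 and the inhibitor gene Cdkn1a stood far above the rest. Cdk6, whose product pairs with D-type cyclins (chromosome 5, 3341485 to 3531008), had 173, 109 and 128 TPM in replicates 1, 2 and 3, with a mean of 137 ± 32.7 TPM, rank 277 among protein-coding genes. Cdk4, the other kinase of D-type cyclins, had 4.50, 7.50 and 6.43 TPM. Cdk2, the partner of cyclin E, had 2.77, 3.65 and 4.20 TPM. The lowest Cdk6 value was above every value of the other two kinases, and Cdk6 exceeded Cdk4 by 4.46 ± 0.71 in log2(TPM + 0.1), or 22.0-fold, and Cdk2 by 37.4-fold. The other quantifier gave 21.8-fold and 35.5-fold for these pairs, which were chosen with the values known. Much of the Cdk6 level lay in a short coding isoform of 697 nt, which had 94.8, 49.2 and 63.8 TPM. A long coding isoform of 11525 nt had 20.0, 25.0 and 29.0 TPM but held 74.8% of the counts. The antisense genes Gm17590 (25.5 ± 2.43 TPM) and Gm42435 (13.2 ± 3.92 TPM) overlap Cdk6 on the opposite strand. The strand setting of the counting is not known, so reads of such pairs cannot be told apart. In all, 11 members overlap an opposite-strand gene with a mean count of 10 or more, Mcm7, Cdk4, Rb1 and Ccna2 among them.

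Cyclin genes of G1 were uneven. Ccnd2, the cyclin D2 gene (chromosome 6, 127125162 to 127152193), had 12.3, 18.9 and 25.5 TPM, a mean of 18.9 ± 6.60 TPM. Ccnd1 had 0.73, 2.11 and 1.09 TPM and Ccnd3 had 1.39, 1.61 and 1.09 TPM. No value of either reached the lowest of Ccnd2, which exceeded Ccnd1 by 3.81 ± 0.66 in log2(TPM + 0.1), or 14.0-fold, and Ccnd3 by 3.65 ± 0.70, or 12.6-fold. With the other quantifier Ccnd2 had a mean of 56.8 TPM and the folds were 45.9 and 33.7. Of that mean, 17.5 and 20.9 TPM came from noncoding isoforms of 127 and 415 nt, both at 0 in the main table. The coding isoform of 6330 nt had means of 7.91 TPM in the main table and 8.12 TPM with the other quantifier. A retained-intron isoform held 52.0% of Ccnd2 TPM in the main table. Ccne1 and Ccne2, the E-type cyclins that act with CDK2 at the entry into S phase, had 1.40, 1.85 and 3.63 TPM and 0.87, 1.95 and 3.16 TPM. Their ranges overlapped, and the difference of 0.25 ± 0.35 in log2(TPM + 0.1) was smaller than its spread. In TPM both were lowest in replicate 1 and highest in replicate 3. In counts scaled between libraries, described below, Ccne1 was lowest in replicate 2, with 53.3, 38.8 and 64.0 in replicates 1, 2 and 3. Ccne2 lies opposite Ints8 (22.5 ± 3.97 TPM) and Ccnd1 opposite LTO1 (12.0 ± 2.79 TPM), both far above them, and 14.4% of the 50-nt windows of Ccne2 transcripts and 21.6% of those of Ccnd1 are shared with these neighbours.

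The brakes of G1 were led by Cdkn1a, the p21 inhibitor gene (chromosome 17, 29090976 to 29100727), with 75.7, 162 and 78.2 TPM and a mean of 105 ± 49.1 TPM, rank 380. Replicate 2 stood above the other two libraries. Cdkn1b, the p27 inhibitor gene, had 5.64, 5.10 and 7.80 TPM, and Cdkn2c, an INK4 inhibitor of CDK4 and CDK6, had 0.55, 0.53 and 0.37 TPM. Cdkn1a exceeded Cdkn1b by 3.72, 4.96 and 3.31 in log2(TPM + 0.1) in replicates 1, 2 and 3, or 16.0-fold on average, and 16.5-fold with the other quantifier. AC167363.2, a transcript of unsettled status in the annotation, lies opposite Cdkn1a with 94.1 ± 13.9 TPM, and 6.34% of the 50-nt windows of Cdkn1a transcripts are shared with it. The retinoblastoma gene Rb1 had 7.47, 9.58 and 15.8 TPM and its relative Rbl2, the p130 gene of the DREAM complex, had 3.60, 7.38 and 5.75 TPM. In TPM Rb1 was highest in replicate 3, where its retained-intron isoform of 355 nt was highest too, with 0.81, 2.82 and 7.79 TPM in the 3 libraries, while its coding isoform had 5.13, 5.16 and 5.36 TPM. In counts scaled by trimmed means (TMM), described below, the order turned, with 657, 518 and 503 scaled counts in replicates 1, 2 and 3. E2f1, the activating E2F gene, was below 1 TPM in every library, at 0.42, 0.99 and 0.69 TPM, although the other quantifier gave a mean of 1.95 TPM.

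Replication genes spanned a wide range, with Pcna, Mcm6 and Cdt1 above the other 9 in every library. With the other quantifier, Rrm1 (7.41 TPM) was above Cdt1 (5.89 TPM) and Tyms had 4.59 TPM. The main coding isoforms of Rrm1, Cdt1 and Tyms had only 0.467, 0.549 and 3.08 TPM of these. In the main table the same isoforms had 0.56, 1.66 and 0.047 TPM. Pcna, the sliding clamp of DNA polymerases (chromosome 2, 132249162 to 132253314), had 17.7, 31.5 and 19.0 TPM, a mean of 22.7 ± 7.61 TPM and rank 2095. Mcm6, a subunit of the replicative helicase, had 4.62, 8.10 and 8.66 TPM. Cdt1, which loads the helicase at origins, had 4.62, 5.46 and 5.96 TPM. Pcna was above every value of both, by 3.16-fold over Mcm6. A processed pseudogene, Pcna-ps2, shares 19.1% of the 50-nt windows of Pcna transcripts and had a mean of 0.20 TPM, and reads from the shared stretches could be assigned to either gene. Mcm7, below, shares 23.3% of its windows with other genes, most with the processed pseudogene Gm5487, which was at 0.

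The 6 subunits of the helicase form a single ring, yet their levels differed. Mcm6 exceeded Mcm2 by 14.3-fold, Mcm4 by 9.21-fold, Mcm3 by 8.70-fold, Mcm7 by 5.97-fold and Mcm5 by 5.73-fold on the log2(TPM + 0.1) scale, and its lowest value was above the highest value of every other subunit. Mcm5 had 0.37, 1.43 and 2.40 TPM and Mcm7 had 0.55, 1.86 and 1.15 TPM. Mcm3 had 0.60, 1.40 and 0.39 TPM, Mcm4 had 0.39, 1.22 and 0.57 TPM, and Mcm2 had 0.28, 0.59 and 0.34 TPM. Of these 5, replicate 1 had the lowest TPM for all but Mcm3, and replicate 2 the highest for all but Mcm5. In scaled counts all 5 were highest in replicate 2, and Mcm2, Mcm3 and Mcm7 were lowest in replicate 3. With the other quantifier the Mcm6 excess was 15.5-fold over Mcm2 and 6.87-fold over Mcm5, the widest and the narrowest of the 5. Short isoforms annotated with a retained intron entered these levels unevenly. Single ones held 58.9% of Mcm5 TPM, 35.3% of Mcm7 TPM and 32.8% of Mcm6 TPM, the last from 3.19% of its counts. In Mcm2, Mcm3 and Mcm4 a coding isoform held 78.5%, 79.9% and 92.2%. The highest single coding isoform had a mean of 2.52 TPM in Mcm6, 0.670 in Mcm4 and 0.637 in Mcm3. It had 0.350 in Mcm5, 0.340 in Mcm7 and 0.317 in Mcm2. By this measure Mcm6 was still the highest, while Mcm5 fell below Mcm4 and Mcm3. The order by summed coding isoforms was not tested.

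Genes of nucleotide supply were low in the main table. Rrm1, the large subunit of ribonucleotide reductase, had 0.93, 1.59 and 2.06 TPM and Rrm2, the small subunit made mainly in S phase, had 0.22, 0.32 and 0.08 TPM, from 4, 13 and 3 counts. Rrm1 was above Rrm2 in every library. Tyms, thymidylate synthase, had 0.69, 1.55 and 1.91 TPM. Cdc6 was the lowest of the class, with 0.25, 0.03 and 0.06 TPM from 20, 3 and 3 counts, so replicate 1 alone set its mean of 0.113 TPM. At 3 counts, the floor used here, its level in replicates 2 and 3 is not measured, nor is that of Rrm2 in replicate 3.

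Mki67 stood apart from the other mitotic genes. This antigen of dividing cells (chromosome 7, 135689784 to 135716361) had 32.0, 30.7 and 31.4 TPM, a mean of 31.4 ± 0.691 TPM and rank 1552. Its spread was small only in TPM of the main table. The other quantifier gave 29.6, 20.9 and 28.1 TPM for Mki67. In scaled counts its coefficient of variation was 0.197, against 0.162 for Cdk6 and 0.152 for Rb1. Of Mki67 TPM in the main table, 97.0% came from a single coding isoform of 10061 nt. The next genes were Tpx2, which builds spindles through AURKA, with 2.69, 3.65 and 4.25 TPM, and Cenpe, a kinetochore motor, with 2.50, 2.59 and 3.93 TPM. Top2a, the topoisomerase that untangles chromosomes, had 0.85, 1.37 and 0.91 TPM, and Cdk1, the kinase that drives entry into mitosis, had 0.46, 1.31 and 1.35 TPM. Mki67 exceeded Tpx2 by 8.81-fold and Top2a by 28.0-fold on the log2(TPM + 0.1) scale, against 4.43-fold and 9.67-fold with the other quantifier. Cenpe exceeded Cenpf, a kinetochore scaffold, by 9.02-fold.

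The other 11 mitotic genes had means of 0.177 to 0.953 TPM. Their counts were small, and 6 of the 16 mitotic genes had a mean count below 10. Plk1, the mitotic polo kinase, and Bub1, a spindle checkpoint kinase, had the lowest means. Plk1 had 0.22, 0.20 and 0.11 TPM from 8, 8 and 3 counts, the last at the floor of 3 counts, and Bub1 had 0.21, 0.09 and 0.24 TPM from 11, 6 and 6 counts. Their values overlapped, and the other quantifier put Plk1 at 0.357 TPM and Bub1 at 0.159 TPM. Plk1 shares 10.4% of its 50-nt windows with other genes, most of them with the processed pseudogene Plk-ps1. That pseudogene had a mean of 1.22 TPM, above Plk1 itself, and reads from the shared stretches could be assigned to either gene. The cyclin genes of mitosis were also low. Ccna2 had 0.45, 0.78 and 0.94 TPM, Ccnb1 0.27, 0.33 and 0.42 TPM and Ccnb2 0.35, 0.19 and 0.11 TPM. Ccnb1 rested on 5, 12 and 6 counts and Ccnb2 on 11, 5 and 3, the last at the floor of 3 counts. Aurkb, the kinase of the chromosomal passenger complex, had 0.26, 1.41 and 0.50 TPM, and its partner Birc5 had 0.27, 0.60 and 0.38 TPM. The quantifiers differed most for Birc5, with a mean of 0.417 TPM in the main table and 3.77 TPM in the other, and for Cdk1, with 1.04 and 7.65 TPM. Ccnb1 shares 23.4% of its 50-nt windows with other genes, most of them with its processed pseudogene Ccnb1-ps, which was at 0.

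The wider lists had the same order of medians in the main table. The 34 genes of the wider G1 list had a median of 3.83 ± 0.741 TPM with 23 reaching 1 TPM in every library. For 45 other replication genes it was 1.26 ± 0.257 TPM with 19, and for 49 other mitotic genes 0.683 ± 0.0874 TPM with 15. The wider G1 list is not confined to G1. It also holds Ccnl1 and Ccnt1, cyclins of splicing and transcription. Foxm1, Mybl2, Lin9, Lin37, Lin52 and Lin54, of the complexes named above for mitotic genes, are in it too. Its median without these genes was not tested. Among the G1 list Ccnl1, a cyclin of splicing, had 338 ± 47.1 TPM, Ccng2, an atypical cyclin, 29.3 ± 5.13 TPM, and Rbl1, the p107 relative of Rb1, 23.6 ± 10.9 TPM. E2f7, a repressing E2F, was lowest at 0.067 ± 0.045 TPM, but the other quantifier gave 18.7 TPM, so its place depends on the quantifier. Among replication genes Pold3, a polymerase delta subunit, had 52.8 ± 15.3 TPM, and Orc4 and Orc3, both subunits of the origin complex, had 31.6 ± 10.8 TPM and 18.9 ± 6.15 TPM. Among mitotic genes Pttg1, the securin gene, had 22.9 ± 7.10 TPM, Smc4 of condensin 21.9 ± 7.31 TPM and Zwint of the kinetochore 17.1 ± 0.824 TPM. With the other quantifier Kif23, a motor of cell division named here after its values were seen, led that list with a mean of 135 TPM, against 1.05 TPM in the main table. Kif18a, a spindle motor, was lowest in the main table at 0.077 ± 0.035 TPM, against 1.85 TPM with the other quantifier.

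Libraries differed beyond counting error for 24 of 34 tested members (70.6%), against 68.8% of all genes tested, and 8 members fell below the count minimum. The test was a chi-square test of equal rates on TMM-scaled counts with Benjamini-Hochberg adjustment, and the members' share was near the background. By class, 11 of 14 G1, 7 of 10 replication and 6 of 10 mitotic genes were called. The spread is given as a coefficient of variation (SD over mean of the scaled counts). It was highest for Ccnd1, at 0.608, with 63.8, 147 and 49.3 scaled counts in replicates 1, 2 and 3. Mcm3 followed at 0.567, with 42.9, 66.3 and 18.2, Mcm5 at 0.517 with 16.2, 53.0 and 38.0, Cdkn1a at 0.482 with 2782, 4884 and 1895, Mcm4 at 0.470 with 35.9, 76.5 and 36.3, Kif11, a spindle motor, at 0.419 with 67.3, 43.9 and 28.5, Pcna at 0.414 with 449, 668 and 283, and Ccna2 at 0.406 with 18.6, 44.9 and 34.6. Replicate 2 was the highest library for 7 of these 8. Cdk2 had the lowest value, 0.035, with 190.2, 190.7 and 202.2 scaled counts, and an adjusted p of 0.80.

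Of the 8 genes just named, 6 were no longer called when 1 library was left out. Without replicate 2, Ccnd1 had an adjusted p of 0.243 and Mcm4 of 0.977. Mcm3 had 0.126 without replicate 3, and without replicate 1 Mcm5 had 0.173, Kif11 0.112 and Ccna2 0.334, which was 0.058 without replicate 2. Cdkn1a and Pcna were called whichever library was left out, as were Ccnd2, Cdkn1b and Mki67, and no other of the 24 was. Without replicates 1, 2 and 3 in turn, 16 of 36, 19 of 35 and 19 of 36 members were called, against 47.5%, 54.7% and 47.7% of all genes tested. Mki67, whose TPM in the main table differed little between libraries, had 8270, 6312 and 5725 scaled counts. TPM and scaled counts set the libraries against different totals.

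In scaled counts most replication genes were highest in replicate 2. Of 10 tested, 8 had their highest scaled count there, against 35.2% of all genes tested, and in the other classes 6 of 14 G1 and 4 of 10 mitotic genes did. The wider replication list did not stand out in this way, with 14 of 37 (37.8%) highest in replicate 2. Nor did TPM show it as clearly, with class medians of 1.49 and 1.53 TPM in replicates 2 and 3. Mcm2, Mcm3, Mcm4, Mcm7 and Pcna had their highest TPM in replicate 2, and Mcm5, Mcm6, Rrm1, Tyms and Cdt1 in replicate 3. In TPM of the other quantifier, only Mcm3 and Mcm4 of these 10 were highest in replicate 2. The median departure of replicate 2 from the other libraries on the log2 scale was 0.66 for replication genes, 0.08 for G1 genes and 0.06 for mitotic genes, against 0.12 for the wider replication list and 0.07 for all genes tested. With the other quantifier the replication value was 0.24. RNAs that are abundant in cytoplasm and mitochondria moved the same way, with all 16 ribosomal protein genes highest in replicate 2 and a departure of 1.26, and 11 of 12 mitochondrially encoded genes and a departure of 3.39. Nuclear-retained RNAs departed by -0.04. Replicate 2 also had the least starting RNA, and the part of these in the level of replication genes was not tested. Mitotic genes had a median departure of 0.29 in replicate 1, against 0.18 for the wider mitotic list and -0.12 for all genes tested. Of the 10 tested, 6 were highest in replicate 1 and none in replicate 3, against 27.7% and 37.2% of all genes tested, and 9 of 39 genes of the wider mitotic list (23.1%) were highest in replicate 3.

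**Figure D3:**
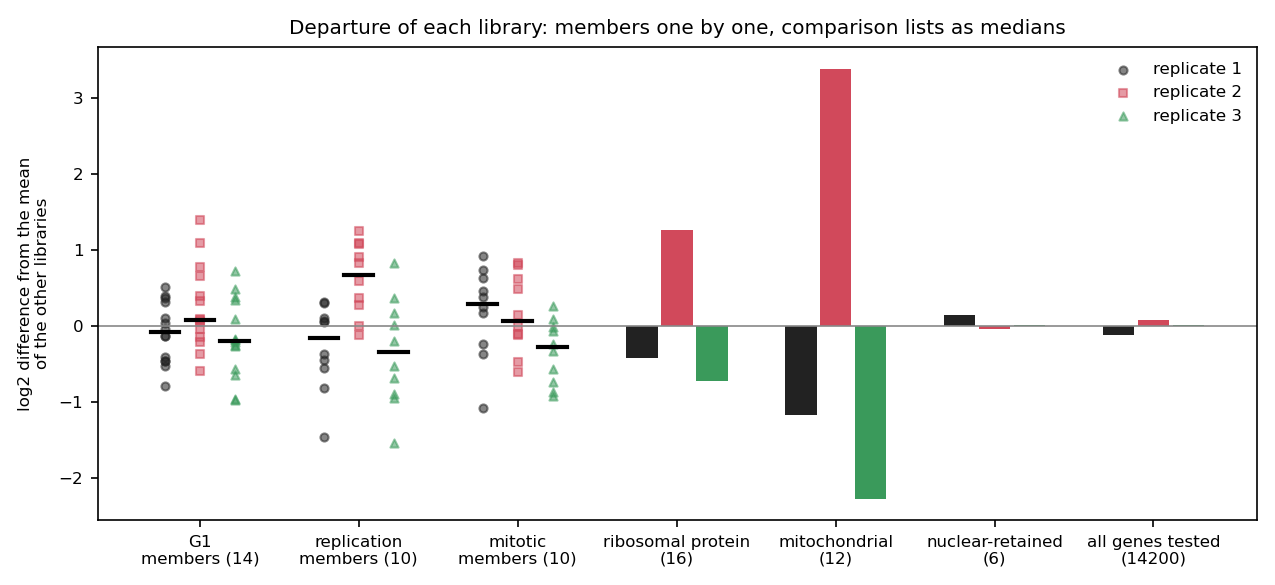
Log2 difference of scaled counts in each library from the mean of the other libraries, one point per member with class medians as black lines, and as bars the medians of ribosomal protein, mitochondrially encoded and nuclear-retained RNAs and of all genes tested. Replication genes in replicate 2 have a median of 0.66, and ribosomal protein and mitochondrial RNAs are also high in replicate 2.

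Isoforms annotated with a retained intron can mark RNA that is not fully spliced. The ratio of summed retained-intron TPM to summed protein-coding TPM, on the log2 scale with 0.1 added, could be tested in 16 of the 31 members with both kinds. With limma and Benjamini-Hochberg adjustment 1 member was called higher, against 19.3% of 5603 genes tested, and 5 were called lower, against 29.7%. Tyms was the gene called higher, at 2.72 with an SE of 0.48 and an adjusted p of 0.006 by limma. Its retained-intron isoforms had 0.40, 0.94 and 1.49 TPM and its coding isoforms 0.06, 0.08 and 0 TPM, all below the 0.1 TPM that was added, and with a pseudocount of 1 the ratio was 0.85. The other quantifier reversed this call, giving -1.78, so the direction for Tyms depends on the quantifier. That quantifier instead called 4 of 16 members higher, against 33.5% of all genes tested. They were Rrm1 at 3.55, Cdt1 at 3.02, Cdk4 at 1.01 and Cdk2 at 0.92. In the main table these were 0.47, 1.07, 0.41 and 0.77 and not called.

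Cdk6 had the lowest ratio, -4.09 with an SE of 0.27 and an adjusted p of 0.000701 by limma, from 8.60, 5.68 and 8.13 TPM in retained-intron isoforms and 164, 104 and 119 TPM in coding ones. Coding isoforms thus held 17.0-fold more, and it stayed called whichever library was left out. The others were Cenpe at -1.76, Ccne1 at -1.50, Ccnd1 at -1.50 and Mcm6 at -1.01, with adjusted p of 0.013, 0.013, 0.035 and 0.025 by limma. None of these 4 was called without replicate 1, when the ratios of Cenpe, Ccne1, Ccnd1 and Mcm6 were -1.72, -1.32, -1.43 and -1.02 with adjusted p of 0.076, 0.084, 0.149 and 0.106 by limma over 2 libraries. Ccnd1 was also lost without replicate 2 (0.124), with the other quantifier (0.055), with no filter on counts (0.092) and with a pseudocount of 1 (0.081), which made its ratio -0.62, and Mcm6 without replicate 2 (0.167) and with the other quantifier, at -0.08. The ratio was highest in replicate 3 in 14 of the 16 (87.5%), against 68.9% of all genes tested. Mki67 has no annotated retained-intron isoform and was not tested.

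**Figure D4:**
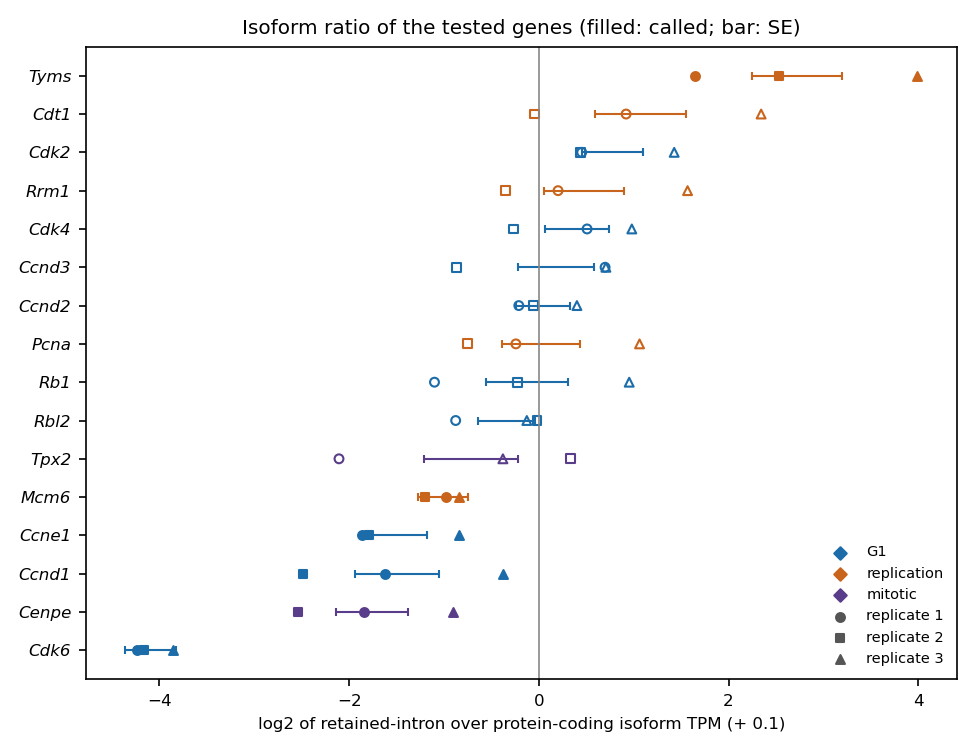
Log2 of retained-intron over protein-coding isoform TPM (0.1 added) of the 16 tested genes, with 1 symbol per library, the SE as a bar, and filled symbols for calls. Cdk6 lies near -4 in every library, and Tyms is the gene called higher.

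The cells carried macrophage markers, with 10 of 10 at 1 TPM or more in every library and means of 5.54 to 334 TPM, summing to 592, 1659 and 491 TPM. Markers of marrow progenitors, which divide, summed to 2.07, 1.76 and 1.31 TPM, with Elane at 0 and Kit, at a mean of 1.17 TPM, the highest of the 8. For T cells, Cd3e, Cd3g and Trbc2 were at 0 and the sum was 5.06 to 9.39 TPM, mostly from Lck and Cd4. B cell, neutrophil, erythroid, and stromal or endothelial markers summed to at most 0.99, 2.67, 3.01 and 6.65 TPM in any library. With the other quantifier the highest sums in any library were 6.14 TPM for marrow progenitors, 23.8 for T cells, 3.68 for B cells, 5.38 for neutrophils, 7.22 for erythroid cells and 17.95 for stromal and endothelial cells. There Cd34 (1.55 TPM) was the highest progenitor marker, and Cd3d had 7.68 TPM, Pecam1 6.75 TPM and Cxcr2 3.91 TPM. The part of such cells in the levels of the 42 genes was not tested. Total expected counts were 19919358, 20430415 and 22023921 in replicates 1, 2 and 3.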

How the data were processed

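RNA of the chromatin fraction was sequenced as ribosomal RNA-depleted total RNA from 3 libraries of 1 group, per the labels. The authors deposited expected counts (estimated read counts per gene and isoform, not always whole) and TPM, with a separate transcript table of estimated counts and TPM, called the other quantifier and summed per gene. Not given in the sources used here are tool names, trimming and strand. Reads were assigned to mm10 and GENCODE M21, per the labels and file headers. Of 81881 entries, 55536 matched the annotation, and 42 of 42 members were matched by symbol. Entries without a match, left out here, held 0.845%, 0.282% and 0.179% of the counts of replicates 1, 2 and 3.

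Class levels are medians of log2(TPM + 0.1). Spread among libraries was tested on expected counts, rounded, with TMM factors from edgeR 4.0.16 (mean count of at least 10), and isoform ratios with limma 3.58.1 (mean count of at least 50), in R 4.3.3, with Benjamini-Hochberg adjustment over all genes tested and a threshold of 0.05. DESeq2 1.42.0 size factors were an alternative. Both tests were tested on simulated data. Overlapping genes came from the annotation, and shared sequence from 50-nt windows of its transcripts on either strand. A count of 0 allows up to 3 counts. Intervals and floors cover counting error only. Members with a mean of at least 1 TPM are given library by library, others by range, with each class's lowest named. Called members are named up to the 8 largest, and of each wider list the 3 highest and the lowest. The lowest of the wider replication list is not reported here. Other genes, isoforms and pairs, the promoters and the restriction to protein-coding isoforms were chosen after the values were seen. Members and lists were chosen with earlier results of these data known. The symbol Sgol1 of 1 list entry matched no gene, which left 49 of 50 mitotic list genes.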

Additional observations from a re-analysis of the deposited data

How the results depend on the processing

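The order of G1 over replication and of G1 over mitotic genes held under every alternative tried. Class levels were 4.06, 1.09 and 0.523 TPM for G1, replication and mitotic genes after back-transformation of the log2 medians. They were 18.6, 4.97 and 2.39 with TPM rescaled over protein-coding genes, and 2.07, 0.540 and 0.341 with protein-coding isoforms only, an alternative chosen after seeing the data. The mitotic level was 1.22 TPM with the other quantifier and 0.761 with a mean over members. With a pseudocount of 1 the log2 difference was 1.25 between G1 and replication genes and 1.73 between G1 and mitotic genes, and the G1 to mitotic difference was 1.79 with the other quantifier and 2.30 with protein-coding isoforms only. The replication minus mitotic difference was reversed at -0.0076 with the other quantifier, and the cause was not tested. Members detected numbered 39 at 0.1 TPM, 7 at 5 TPM and 35 after rescaling. The share of all protein-coding genes at these settings is not given here, so these counts have no background beside them. Isoform ratios called higher numbered 4 of 16 with the other quantifier, against 33.5% of all genes tested. Without replicates 1, 2 and 3 in turn they numbered 1 of 16, 2 of 16 and 0 of 17, against 10.7%, 17.4% and 14.4%. Those called lower numbered 10 of 31 with no filter, against 19.5%. Leaving out replicates 1, 2 and 3 in turn gave 1 of 16, 3 of 16 and 7 of 17 lower, against 16.3%, 23.0% and 32.2%. Among all genes, 1876 were called higher with the other quantifier, against 1084, and 607 higher and 925 lower without replicate 1. Tyms was reversed at -1.78 with the other quantifier, and Tyms and Ccne1 fell below the count minimum without replicate 3. The departure of G1 genes was reversed at 0.0081 with DESeq2 size factors and 0.20 with the other quantifier in replicate 1, and at -0.089 with the other quantifier in replicate 2. That of mitotic genes in replicate 2 was reversed at -0.011 with DESeq2 size factors and -0.028 with the other quantifier, and that of replication genes in replicate 2 was 0.24 with the other quantifier. Of 42 member levels, 18 moved beyond their spread with the other quantifier. The share of all genes that moved is not given here, so this count is not a trait of the members. No paired analysis was possible because there is 1 group. At this depth, members with a mean count below 10 were not tested for variation.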
